A study of Mus musculus with 2 samples.

Results

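Replication-dependent histone genes were taken as the protein-coding genes of GENCODE M21 whose symbols start with Hist1h, Hist2h, Hist3h or Hist4. They numbered 67 of 21938 protein-coding genes. There were 6 genes for the linker histone H1, which binds DNA where it enters and leaves the nucleosome. The core histones, around which the DNA is wound, had 18 genes for H2A, 18 for H2B, 12 for H3 and 13 for H4. DNase-seq, in which DNase I cuts DNA where nucleosomes are displaced, was run on whole embryos of the mouse strain B6NCrl at embryonic day 10.5. Males and females were pooled. All samples formed 1 group of 2 biological replicates, for which the labels name no treatment and no mutant allele. They give both replicates the same donor identifier. Every embryonic tissue entered the mixture, so fewer cells with an open site and less cutting per cell cannot be told apart.

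These genes supply the histones that package newly copied DNA, and they are transcribed mainly in S phase. They have no introns as a rule, and their mRNAs end in a conserved stem-loop instead of a poly(A) tail, which the stem-loop binding protein recognises. Most lie in clusters where NPAT, a coactivator driven by cyclin E and CDK2, gathers with processing factors in histone locus bodies. Many H2A and H2B genes are arranged head to head around a shared promoter. Subtype promoters are known for their own elements, such as the octamer at H2B genes, site II at H4 genes and the AC box at H1 genes. Embryos at this stage grow fast, and their tissues hold many dividing cells.

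The replicates held 207946 and 229568 peaks of 150 bp on the nuclear chromosomes, each with a whole-number score by the authors from 2 to 149, called peak strength here. No source used here gives its definition or the library depth. Median strength was 41 in replicate 1 and 50 in replicate 2. Broader stretches called hotspots numbered 188404 and 188191. Of 22 marker genes of embryonic and neighbouring tissues, 12 were open at a transcription start site (TSS), where 69.7% of all protein-coding genes were. Open markers included the neural gene Sox2 with strengths of 103 and 125 and the heart gene Tbx5 with 40 and 82. The endothelial marker Cdh5 had a peak of 43 in replicate 1 only. The 4 markers of primitive red cells, the trophoblast and decidua markers and the late testis markers Prm1 and Acr had no peak there in either replicate.

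Promoter sequences are shown first, because most of the peaks described later lie on such stretches. They were chosen after their values were seen, and their letters are those of GRCm38 (mm10), read 5′ to 3′, ending before the outermost RefSeq or GENCODE start. The first pair of stretches lies between head-to-head H2A and H2B genes and is given on the plus strand, at chr13:22035644-22035820 and chr13:23574208-23574380. Capitals mark a CCAAT box (CCAAT, or ATTGG on the other strand), the word bound by NF-Y, and the octamer ATTTGCAT, the word bound by OCT1.
Hist1h2ah/Hist1h2bk: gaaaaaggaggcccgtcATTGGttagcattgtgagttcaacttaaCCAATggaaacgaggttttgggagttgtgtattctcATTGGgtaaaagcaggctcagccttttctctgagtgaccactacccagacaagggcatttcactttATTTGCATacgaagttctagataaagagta
Hist1h2bf/Hist1h2ad: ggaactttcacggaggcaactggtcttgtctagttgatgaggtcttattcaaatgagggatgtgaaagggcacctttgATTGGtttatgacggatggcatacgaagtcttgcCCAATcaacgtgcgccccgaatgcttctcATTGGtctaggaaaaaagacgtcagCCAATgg
The first stretch held 3 CCAAT boxes and 1 octamer, and the second held 4 CCAAT boxes and no octamer. A peak overlapped each in both replicates, with strengths of 139 and 138 at the first and 133 and 142 at the second.

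A pair of H4 promoters is shown for the site II core GGTCCG, the word recognised by HINFP, which is in capitals with CCAAT. They lie on the minus strand, at chr3:96263318-96263447 for Hist2h4 and chr13:23698459-23698588 for Hist1h4c.
Hist2h4: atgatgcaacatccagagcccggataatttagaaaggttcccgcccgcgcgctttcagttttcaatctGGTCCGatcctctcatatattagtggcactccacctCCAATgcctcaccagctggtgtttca
Hist1h4c: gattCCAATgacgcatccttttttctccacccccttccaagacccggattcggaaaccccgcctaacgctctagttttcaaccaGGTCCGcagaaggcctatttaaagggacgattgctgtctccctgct
Each held 1 site II core and 1 CCAAT box within 130 bases. Peak strength there was 124 and 135 at Hist2h4 and 124 and 134 at Hist1h4c, so these genes of different chromosomes differed little in either replicate.

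A pair of H1 promoters sets the testis gene Hist1h1t beside Hist1h1c, which is used in most somatic cells. Both lie on the plus strand, at chr13:23695681-23695810 for Hist1h1t and chr13:23738677-23738806 for Hist1h1c. Capitals mark the AC box AAACACA and CCAAT.
Hist1h1t: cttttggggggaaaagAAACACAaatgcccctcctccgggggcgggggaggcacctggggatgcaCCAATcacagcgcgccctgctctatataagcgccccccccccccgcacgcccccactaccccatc
Hist1h1c: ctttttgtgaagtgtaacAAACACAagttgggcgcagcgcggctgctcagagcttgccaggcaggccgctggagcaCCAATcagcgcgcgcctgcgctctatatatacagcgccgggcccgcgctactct
Each held 1 AC box and 1 CCAAT box in the same order. Hist1h1t had no peak within 1 kb of its TSS in replicate 1 and 3 in replicate 2, all inside the coding sequence, the strongest of 47. Hist1h1c had a peak of 127 and 130 at chr13:23738736-23738885 in both replicates, which begins inside the stretch shown and runs past its TSS.

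Most of the 67 histone genes were open, and the open ones carried strong peaks. A gene counted as open where each replicate had a peak overlapping the 1 kb to either side of one of its annotated TSSs. This held for 57 of 67 histone genes (85.1%), against 15300 of 21938 protein-coding genes (69.7%). The strongest TSS peak of open histone genes reached a median strength of 128 and 130 in the replicates, against 109 and 118 over all open genes. Of the 57, 49 lay above the median of all open genes by mean strength but 5 in their top 10%, and the highest mean was 138.5, against 148.5 over all genes. Between the replicates, 41 of 57 histone genes were higher in replicate 2, 15 were lower and 1 was equal. Over all open genes 83.3% were higher in replicate 2. On the log2 scale, replicate 2 exceeded replicate 1 by a median of 0.04 at histone genes and 0.10 over all open genes. The SD between replicates had a median of 4.24 and reached 21.9 at Hist2h2aa1.

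**Figure D1:**
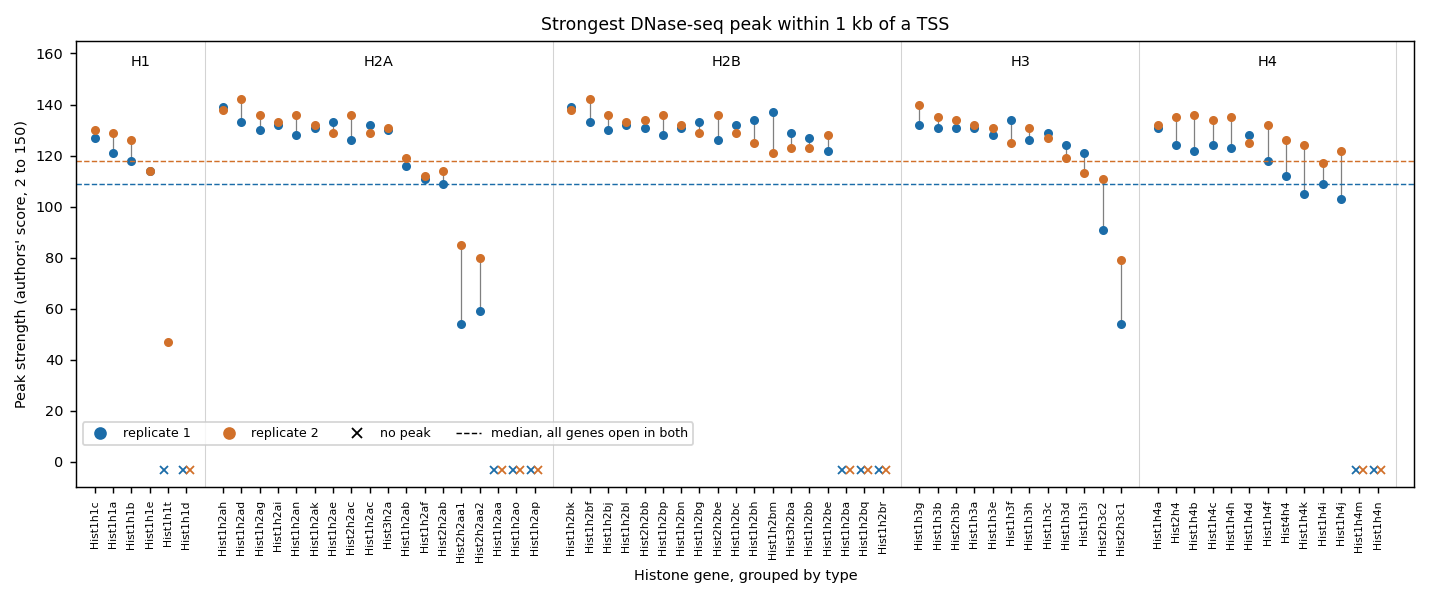
Strength (the authors' score) of the strongest peak within 1 kb of a TSS for each of the 67 histone genes, grouped by histone type on the x axis, with a point per replicate and a cross where there was no peak. Dashed lines are the medians of all open genes, 109 in replicate 1 and 118 in replicate 2; most open histone genes lie above them, while Hist2h2aa1, Hist2h2aa2 and Hist2h3c1 lie far below.

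By their annotated TSSs, 4 of 6 linker histone genes (66.7%) were open, against 69.7% of all protein-coding genes. This lower count than in the other types depended on the TSS annotation. In the 500 bp before the start codon, 5 of 6 H1 genes (83.3%) had a peak centre in both replicates. The share was also 83.3% at H2A, H2B and H3 genes, and 84.6% at H4 genes. Strength was 127 and 130 at Hist1h1c, 121 and 129 at Hist1h1a, 118 and 126 at Hist1h1b, and 114 and 114 at Hist1h1e. These are somatic H1 genes, and all 4 exceeded the median of all open genes in replicate 1, while Hist1h1e fell short of it in replicate 2. Hist1h1d, also a somatic H1 gene, was not open at its annotated TSS, which lies 1828 bp before its start codon. Directly before its start codon, however, a peak had strengths of 120 and 131, close to those of Hist1h1c. With the start codon in place of the TSSs, an alternative added after the values were seen, Hist1h1d and Hist1h1t counted as open. This made 59 of 67 histone genes, against 11149 of 21938 protein-coding genes. Hist1h1t counted only through weak peaks at different sites. The replicate 1 peak of 25 was centred 1024.5 bp past the start codon, and the replicate 2 peaks, the strongest of 47, lay in the coding sequence. Neither replicate had a peak centre in the 500 bp before its start codon.

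Among H2A genes, 15 of 18 were open, with medians of 130 and 131 in the replicates. Hist1h2ah had 139 and 138, Hist1h2ad 133 and 142, and Hist1h2ag 130 and 136. Each of these shares its strongest peak with the H2B gene on the other side of the promoter. At the low end Hist2h2aa1 had 54 and 85, Hist2h2aa2 59 and 80, Hist2h2ab 109 and 114, and Hist1h2af 111 and 112. Hist2h2aa1 and Hist2h2aa2 stood apart from the other 13 open H2A genes in both replicates. Hist1h2ao, Hist1h2ap and the testis variant Hist1h2aa had no peak.

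H2B genes were open in the same number, 15 of 18, with medians of 131 and 132. Hist1h2bk, Hist1h2bf and Hist1h2bj led, with the values of their H2A partners. At the low end Hist1h2be had 122 and 128, Hist1h2bb 127 and 123, and Hist3h2ba 129 and 123, so even the lowest open H2B genes exceeded the medians of all open genes in both replicates. The value of Hist1h2be belongs to an outer TSS 35168 bp from its start codon, beside Hist1h1e, and the peak directly before its own start codon had 127 and 124. Hist1h2bq, Hist1h2br and the testis variant Hist1h2ba had no peak.

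All 12 H3 genes were open, with medians of 128.5 and 129. Hist1h3g had 132 and 140, Hist1h3b 131 and 135, and Hist2h3b 131 and 134. The peak of Hist2h3b lay past its stop codon and is the promoter peak of Hist2h2bb, while the one directly before its own start codon had 114 and 112. The lowest were Hist2h3c1 with 54 and 79, Hist2h3c2 with 91 and 111, and Hist1h3i with 121 and 113. The replicate 2 value of Hist1h3i is also a peak past its stop codon, and the one before its start codon had 111. At Hist2h3c1 and Hist2h3c2 the peak lay past the stop codon, and neither gene had a peak centre in the 500 bp before its start codon.

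Of the H4 genes, 11 of 13 were open, with medians of 122 and 132. The highest were Hist1h4a with 131 and 132 and Hist2h4 with 124 and 135, followed by Hist1h4b with 122 and 136, Hist1h4c with 124 and 134 and Hist1h4h with 123 and 135, which shared a mean of 129. Hist1h4j with 103 and 122, Hist1h4i with 109 and 117, and Hist1h4k with 105 and 124 were lowest. At Hist1h4j the replicate 1 value is a peak more than 500 bp before the start codon, and the peak directly before it had 97 in replicate 1 and 122 in replicate 2. The medians of the replicates differed more at H4 genes (SD 7.07) than at H3 genes (SD 0.354). Hist1h4m and Hist1h4n had no peak.

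The histone genes fell into 4 regions of the Hist1 cluster on chromosome 13, split where neighbours lay over 100 kb apart, and the Hist2, Hist3 and Hist4 loci. All members of Hist2 on chromosome 3 (10 of 10), Hist3 on chromosome 11 (2 of 2), Hist4 on chromosome 6 (1 of 1) and Hist1 region 2 (5 of 5) were open. In Hist1 region 3, the longest, 27 of 29 were open, and the exceptions were Hist1h1d and Hist1h1t. Hist1 region 1 had 12 of 18 open, and region 4, which holds only the testis variants Hist1h2ba and Hist1h2aa, had neither. Median strength was highest in region 2, at 130 and 136 in the replicates, but by little in replicate 1. It was 129.5 and 127 at Hist3, 128 and 131.5 in region 1, and 128 and 129 in region 3. Hist2 had 116.5 and 124, and Hist4 had 112 and 126. In region 2, Hist1h2ah and Hist1h2bk shared their strongest peak, as did Hist1h2ag and Hist1h2bj.

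Genes without a peak in the Hist1 cluster differed in how repeated their sequence was. For each gene the share of 36-base words within 1 kb of the TSS that occur elsewhere in the genome on either strand was counted, a length that was chosen here because read lengths are not stated in the labels. Its median was 22.8% over the 67 histone genes. At Hist1h2bq, Hist1h2ao, Hist1h2ap and Hist1h2br it was 100%, at Hist1h4m 95.3% and at Hist1h4n 95.0%, which are the 6 genes without a peak in region 1. The other 4 genes not open were made of unique words in the main, with 0.500% at Hist1h1d, 0% at Hist1h1t, and 9.55% at both Hist1h2ba and Hist1h2aa. Whether reads could be placed at the repeated genes was not tested, and a missing peak there does not tell whether the promoter was closed.

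Repeated words were also frequent at the weakest open genes. The share was 79.5% at Hist2h3c2, 78.7% at Hist2h3c1, 57.9% at Hist2h2aa2 and 56.9% at Hist2h2aa1, and these were the only open histone genes above 50%. Within 1.5 kb of the start codons of all 67 genes, unique words took 110634 bases, of which 65.2% lay in hotspots in replicate 1 and 75.8% in replicate 2. Repeated words took 31049 bases, of which 5.20% and 6.77% lay in hotspots. Peak centres numbered 1.56 and 1.65 per kb at unique words and 0.354 and 0.386 per kb at repeated words. The split by word was chosen after the values were seen.

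Along the gene, peaks stood directly before the start codon and again past the stop codon, with few in between. The strongest TSS peak was centred within 300 bp before the start codon at 47 of 57 genes in replicate 1 and 47 of 58 in replicate 2, at a median of 135.5 bp and 119.5 bp before it. Open histone genes had a mean of 3.21 and 3.25 peaks within 1 kb of the 5′-most TSS in the replicates, against 2.26 and 2.50 for all open genes. The 5′-most TSS itself lay in a hotspot in both replicates at 37 of 67 histone genes, against 56.9% of all protein-coding genes.

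Peak centres were then counted in 3 zones, chosen after the values were seen. In the 500 bp before the start codon, 56 of 67 histone genes (83.6%) had one in both replicates, against 40.3% of all genes. Between the start and the stop codon, introns included, 5 of 67 (7.46%) had one, against 55.2% of all genes, most of which have introns there. In the 500 bp past the stop codon 45 of 67 (67.2%) had one, against 4.42% of all genes. With genes of 1 coding exon alone, 55 of 64 histone genes (85.9%) had a peak centre before the start codon, 4 (6.25%) in the coding sequence and 44 (68.8%) past the stop codon. Among other genes with 1 coding exon the shares were 12.2% before the start codon, 10.1% in the coding sequence and 4.66% past the stop codon.

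**Figure D2:**
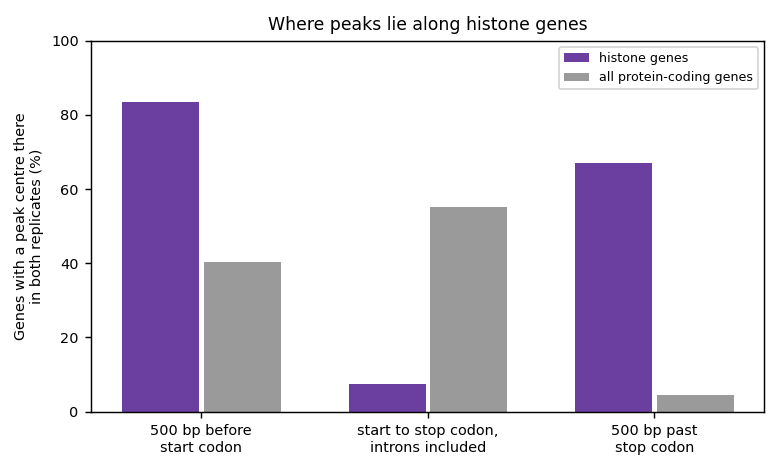
Percent of genes with a peak centre in both replicates (y axis) in each of 3 zones along the gene (x axis), for the 67 histone genes and all 21938 protein-coding genes. Histone genes stand at 83.6% before the start codon, 7.46% between start and stop codon, introns included, and 67.2% past the stop codon, against 40.3%, 55.2% and 4.42% of all genes.

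The downstream peak was found in every type, at 3 of 6 H1, 12 of 18 H2A, 12 of 18 H2B, 8 of 12 H3 and 10 of 13 H4 genes. It was not limited to genes with a neighbour close by, since 26 of the 37 histone genes with no other protein-coding TSS within 1 kb of that stretch had one (70.3%). Among other genes it was more frequent where the promoter was open. Of 325 other genes with an upstream peak and a stop codon within 1 kb of the start codon, 87 (26.8%) had a downstream peak, against 43 of 56 histone genes with an upstream peak (76.8%). Over all 2915 other genes that short it was 4.77%.

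Past the stop codon the strengths spread widely between genes. Hist1h1d had 128 and 137, Hist1h1b 125 and 129, and Hist1h1c 115 and 128, all H1 genes with downstream peaks in the range of promoter peaks. Hist1h4h had 120 and 123, Hist4h4 105 and 114, Hist1h4j 98 and 110, and Hist1h4a 42 and 90. The median was 74 in replicate 1 and 103 in replicate 2, against 127 and 129.5 for the upstream peaks of histone genes. In both replicates the upstream peak was the stronger at 38 of the 43 genes that had both. All 45 downstream peaks were stronger in replicate 2, with a median log2 ratio of 0.46, and over all genes this held for 888 of 969, with 0.29. The replicates thus differed more at these downstream peaks than at the upstream peaks of histone genes, where the median log2 ratio was 0.04.

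Coding peaks in both replicates were few and of middling strength. They were at Hist2h2ab with 62 and 77, Hist1h2bm with 69 and 85, Hist1h2ak with 65 and 87, and Hist1h4f with 69 and 100. Hist1h2bp, whose annotated coding sequence has 2 exons, had a peak of 83 and 98 in its intron. All 5 are core histone genes whose upstream peak was stronger. The coding sequences are also where histone genes resemble each other most, with a median of 80.8% repeated words over all members, 14.3% at H1, 87.0% at H2A, 79.1% at H2B, 89.1% at H3 and 73.9% at H4 genes.

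For 56 open histone genes with 1 coding exon, unique bases were therefore set apart in each zone. Of unique bases, 82.8% upstream, 66.5% in the coding sequence and 86.9% downstream lay in a hotspot in both replicates. Of repeated bases, 10.3% upstream, 6.80% in the coding sequence and 7.14% downstream did. Repeated bases made up 17.2% of the upstream zone, 63.7% of the coding zone and 10.5% of the downstream zone. Peak centres on unique bases numbered 2.41 and 2.46 per kb upstream, 0.370 and 0 per kb in the coding sequence, and 2.21 and 2.25 per kb downstream. On repeated coding bases they numbered 0.351 per kb in each replicate, no fewer than on unique coding bases in replicate 2 and nearly as many in replicate 1. Hotspot cover of unique coding bases was thus nearer to that of the flanks than the cover of all coding bases, whereas peak centres were few in the coding sequence on either kind of base. Unique and repeated coding bases were not matched by gene or position. The median share of repeated coding words was 14.3% at H1 and 89.1% at H3 genes. At 10 bp past the start codon 11.6% of words were repeated, against 84.8% at 210 bp.

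**Figure D3:**
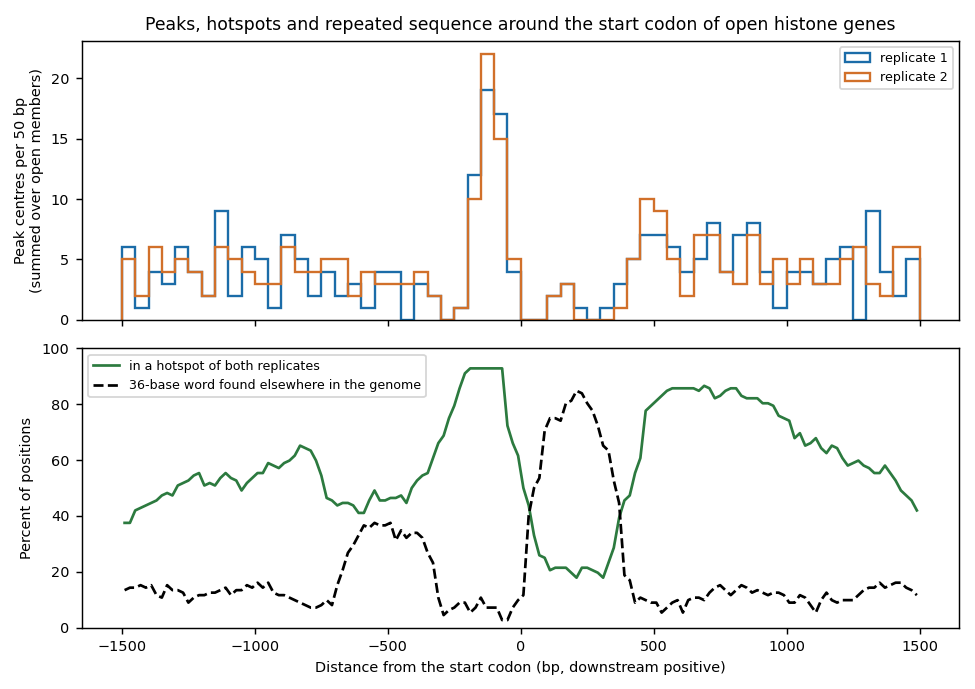
Top, peak centres per 50 bp summed over the 57 open histone genes, for each replicate, by distance from the start codon in bp (downstream positive). Bottom, for the 56 with 1 coding exon, percent of positions in a hotspot of both replicates and percent whose 36-base word occurs elsewhere; hotspot cover is 92.9% at 110 bp before the start codon and 17.9% at 210 bp past it, where 84.8% of words are repeated, and 85.7% at 610 bp past it.

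Head-to-head arrangement was measured for 13 pairs of histone genes whose TSSs lay at most 1 kb apart. Of these, 12 joined an H2A and an H2B gene, with TSSs 176 to 306 bp apart, and 1 joined the H2B gene Hist1h2bh and the H3 gene Hist1h3f, 660 bp apart. In 10 of the 13 a peak lay between the TSSs in both replicates, and always exactly 1 in each replicate. The pair Hist1h2ah/Hist1h2bk had 139 and 138, Hist1h2bf/Hist1h2ad 133 and 142, and Hist1h2ag/Hist1h2bj 130 and 136. The lowest were Hist1h2bh/Hist1h3f with 134 and 125, where the replicate 1 peak lay nearer to Hist1h2bh, Hist1h2ac/Hist1h2bc with 132 and 129, and Hist2h2ac/Hist2h2be with 126 and 136, which had the same mean of 131 as Hist1h2ae/Hist1h2bg with 133 and 129. Means of the H2A and H2B pairs with a peak thus spanned a narrow range, 130.5 to 138.5. No peak lay in Hist1h2bq/Hist1h2ao and Hist1h2ap/Hist1h2br, whose sequence is repeated throughout, nor in the testis pair Hist1h2ba/Hist1h2aa. The 57 genes with a peak in replicate 1 had 45 distinct strongest peaks, and 24 genes shared theirs with another member. Not all of these were head to head. Hist2h3b shared its peak with Hist2h2bb, and Hist1h4a with Hist1h3a, each a neighbour on the same strand.

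Letters of the promoters differed by histone type. Windows from 250 bases before to 50 after the 5′-most TSS were searched for exact words on both strands, and no searched word contains another, although matches can overlap. CCAAT was in 56 of 67 histone promoters, against 39.0% of all 21938 promoters, and in every H2A and H2B promoter (18 of 18 each), 11 of 12 H3, 5 of 6 H1 and 4 of 13 H4 promoters. TATAAA was in 37 of 67, against 12.6% of all, with 4 of 6 H1, 12 of 18 H2A, 10 of 18 H2B, 4 of 12 H3 and 7 of 13 H4. The octamer ATTTGCAT was in 15 of 67, 7 H2A and 8 H2B promoters, against 1.57% of all. H2A promoters share their windows with H2B promoters in the pairs, so these counts overlap.

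The site II core GGTCCG was in 12 of 13 H4 promoters and in 15 of 67 histone promoters, against 9.60% of all. The AC box AAACACA was in 4 of 6 H1 promoters and in 9 of 67, against 6.40% of all. The E2F words TTTGGCGC or TTTCCCGC were in 3 of 67, all H4, against 2.00% of all, and the CRE word TGACGTCA in 4 of 67, against 2.43% of all. The Sp1 word GGGCGG was in 28 of 67 (41.8%), against 43.0% of all, so its share was near that of all promoters. Within 500 bp of the TSS the observed to expected ratio of CpG had a median of 0.879 at histone genes, against 0.552 over all genes, while GC content was 53.7% against 54.7%. Hist1h1d, whose annotated TSS lies far from its start codon, had the lowest ratio, 0.115, and Hist1h1t had 0.438.

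**Figure D4:**
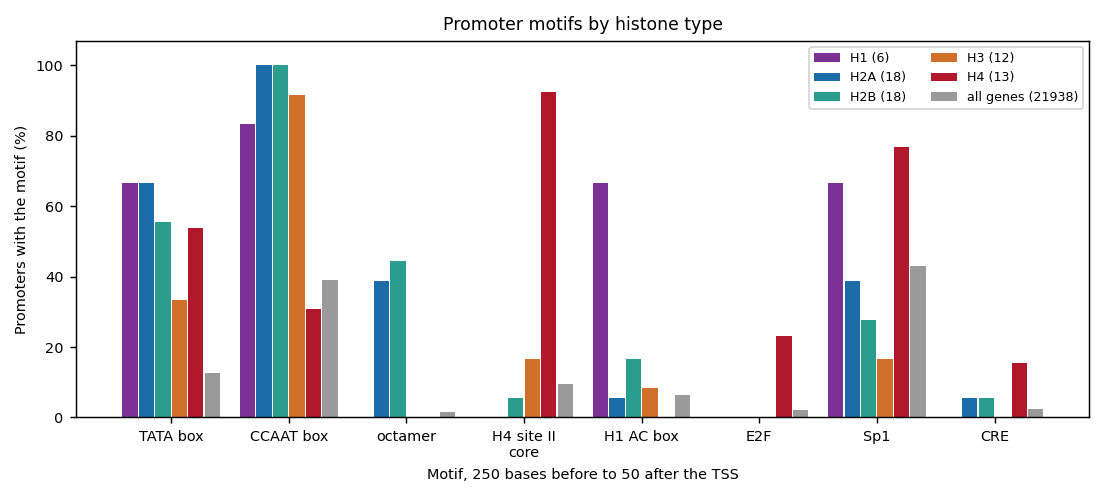
Percent of promoters (y axis) that hold each searched word (x axis), from 250 bases before to 50 after the TSS, for the 5 histone types and all 21938 protein-coding genes. CCAAT is in every H2A and H2B promoter, the octamer only in H2A and H2B promoters among the histone genes, and the site II core in 12 of 13 H4 promoters.

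Beyond the stop codon, the histone stem-loop was searched on the coding strand as arms of 6 bases around a loop of 4, with 5 variable positions. It was present within 150 bp at 60 of 67 histone genes (89.6%), at a median of 32 bp past the stop codon, against 62 of all 21938 protein-coding genes (0.283%), the histone genes included. The arms are in capitals and the loop in lower case in the commonest forms, which lie in the mRNA and are written as DNA of the coding strand.
commonest form: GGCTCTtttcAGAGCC
H4 form: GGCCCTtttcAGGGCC
The commonest form was in 38 genes of types H1, H2A, H2B and H3, exemplified at chr3:96238485-96238500 on the minus strand past Hist2h3c2. The H4 form was in 8 genes, all H4, exemplified at chr6:136803998-136804013 on the minus strand past Hist4h4. All 6 H1 genes had a stem-loop, Hist1h1t included, as did the testis variants Hist1h2ba and Hist1h2aa. It was present at 52 of 57 open genes and 8 of 10 others. The genes not open that lacked it were Hist1h2bq and Hist1h2br. These, like the open gene Hist1h2bp, which lacked it too, are annotated with 2 coding exons. Only the stretch past the stop codon of that annotation was searched. Downstream peaks were counted over 500 bp past the stop codon, a zone that includes this site.

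Hotspots covered the clusters densely. With 5 kb added on each side, the 7 stretches spanned 496 kb, of which 18.8% lay in hotspots in replicate 1 and 23.0% in replicate 2, against 2.20% and 2.90% of the nuclear chromosomes. Covered length was 93.2 kb and 114 kb, in 186 and 174 hotspots. Peaks numbered 248 and 260 in the clusters. Hist1 region 2 had 10.3 per 10 kb in each replicate and region 3 had 4.48 and 4.89, against 0.763 and 0.842 per 10 kb of the nuclear chromosomes. The 1477 kb between Hist1 regions 2 and 3, at chr13:22048677-23526049, had 3.59% and 4.65% in hotspots and 1.05 and 1.31 peaks per 10 kb.

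By region, hotspot cover was highest in Hist1 region 2 (chr13:22030164-22048676), at 33.8% and 40.5%. Hist1 region 1 (chr13:21710763-21842530) had 17.9% and 22.9%, and region 3 (chr13:23526050-23769406) had 43.7 kb of its 243 kb covered in replicate 1 and 51.1 kb in replicate 2. Region 4 (chr13:23928773-23939851), with the testis variants, had no hotspot and no peak in either replicate. Hist2 (chr3:96214865-96275132) had 22.8% and 22.9%, the values closest between the replicates among the clusters with hotspots. Hist3 (chr11:58943920-58961830) had 22.7% and 40.6%, and Hist4 (chr6:136796553-136809415) had 14.7% and 32.8%, so Hist3 and Hist4 differed most between the replicates. The Hist4 stretch also holds the TSS of H2afj. Of its 1.89 and 4.22 kb in hotspots, the hotspot over Hist4h4 took 1393 and 2206 bp.

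**Figure D5:**
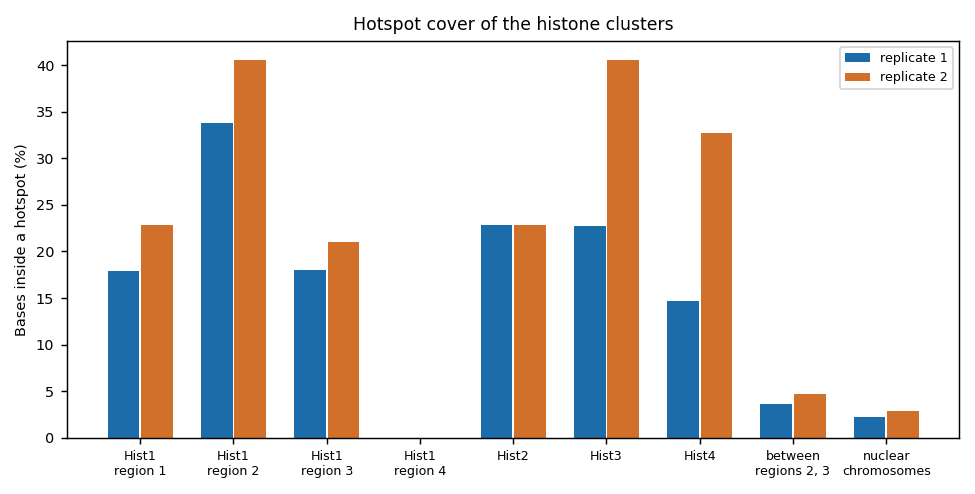
Percent of bases inside a hotspot (y axis) in each histone cluster, in the stretch between Hist1 regions 2 and 3 and over the nuclear chromosomes (x axis), with a bar per replicate. Cover is 33.8% and 40.5% in Hist1 region 2, 0% in region 4, and 2.20% and 2.90% over the nuclear chromosomes.

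Cluster hotspots were also wider and more often of the smallest q-values. The authors' −log10 q was 100, the top value of the column, at 57.5% and 62.6% of cluster hotspots, against 34.4% and 35.3% of all. Median width was 368 and 444 bp, against 245 and 260 bp over all hotspots. The widest was 4908 bp in replicate 2 (chr13:21778104-21783011) over Hist1h1b and the 3′ end of Hist1h3i, short of the TSS of Hist1h3i. Replicate 1 had one of 2820 bp (chr13:21778635-21781454) over Hist1h1b alone. Another spanned 3121 bp in replicate 2 (chr13:23762356-23765476) over Hist1h1a and the 5′ end of Hist1h3a. Hist2h4 lay inside hotspots of 3072 bp in replicate 2 (chr3:96261649-96264720) and 2796 bp in replicate 1 (chr3:96261469-96264264). All 5 widest hotspots thus covered an H1 gene or Hist2h4.

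Protein-coding genes inside the clusters that are no members were open as well, at 4 of 4, against 69.7% of all protein-coding genes. Trim17 had 130 and 131, with the same annotated TSS position and the same peak as Hist3h2a. H2afj, a replacement H2A gene beside Hist4h4, had 120 and 126, Bola1 122 and 114, and Hfe, the haemochromatosis gene, 63 and 79. Between Hist1 regions 2 and 3, 1 of 36 vomeronasal receptor genes was open, against 4 of 4 genes of other families. A further 9 receptor genes had a peak in 1 replicate only, 4 in replicate 1 and 5 in replicate 2. Repeated words were not counted at the receptor genes, and a missing peak there does not tell whether the promoter was closed.

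Other histone genes fell into a group that was open throughout and a group that was not. Replacement histones, which are made outside S phase too, were open at 11 of 11 genes, against 69.7% of all protein-coding genes. H2afx, whose product is phosphorylated at DNA breaks, had 136 and 138, H2afz 130 and 143, and H3f3b, a gene for the H3.3 variant, 133 and 139. Of 9 germ cell histone genes outside the clusters that matched a name, H1foo, H1fnt, Hils1, H2afb1, H2afb2, H2afb3, H2bfm, H2al1a and H2al2a, none was open, and Hils1 had a peak of 35 in replicate 2 only. Inside the clusters, the testis genes Hist1h1t, Hist1h2aa and Hist1h2ba were likewise not counted as open at a TSS. Repeated words were not counted at the germ cell genes outside the clusters. A missing peak there does not tell whether the promoter was closed.

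Listed genes that act on the histone genes and their products were all open, against 69.7% of all protein-coding genes. Of those for transcription and 3′ end processing, 25 of 25 were open, with 144 and 140 at Casp8ap2, a component of histone locus bodies, 137 and 141 at Slbp, for the stem-loop binding protein, and 137 and 139 at Npat. Zfp473, whose product takes part in 3′ end processing, had the same mean as Npat, with 142 and 134. Histone chaperones were open at 19 of 19 genes, led by Hjurp, the chaperone of the centromeric H3, with 148 and 149, and Asf1b with 138 and 144, with Rbbp4 at 137 and 139 and Nap1l1 at 136 and 140 next. S phase genes were open at 20 of 20, led by Rrm1 with 136 and 138, Mcm3 with 133 and 140, and Pcna with 139 and 132. Median mean strength was 129.5 at histone genes and likewise 129.5 at the processing genes, 127.5 at chaperones, 129 at S phase genes and 123 at replacement histones, against 113.5 over all open genes. With each gene's strongest peak within 1 kb, open histone genes lay at the level of the genes of S phase by this bounded score. No test of a difference was run. Counting each peak only for the gene with the nearest TSS gave a median of 120.25 at histone genes, against 110.5 over all open genes. The lists were not recomputed in that way.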

How the data were processed

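The authors called peaks and hotspots in each replicate by itself, on mm10, per the labels and the deposited text files. The aligner, caller, versions and thresholds are not stated in the sources used here. The deposited peak score is a whole number of unstated definition, bounded at 150, so ratios among strong peaks are compressed. The deposited hotspots carry −log10 of a q-value, from 1.30 to 6, or 100, and were not filtered on it. Repeated peak lines (28 and 47), mitochondrial DNA and scaffolds were left out.

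Gene models were GENCODE M21 (GRCm38.p6, the same chromosomes as mm10). Each gene's strongest peak overlapping 1 kb around any TSS was taken. The clusters were split at 100 kb. Words of 36 bases were counted in the nuclear genome. The members and the 5 fixed lists of related genes were chosen with earlier results of these data known. H3f3c matched no protein-coding gene. In each type the 3 strongest and 3 weakest open genes, those open in 1 replicate or none and the testis variants were named; in each list, the 3 strongest and all not open. The named pairs were the 3 strongest and 3 weakest, and the 5 widest hotspots were named. Other genes named, such as those with downstream or coding peaks, were chosen after their values were seen. Single values are the authors' per peak. With 1 group there was no contrast and no test. The labels call the replicates biological, and the spread given is between these 2 samples.

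Python 3.11.15, numpy 2.4.6, pandas 2.3.3, numba 0.67.0 and matplotlib 3.10.9 were used. TSS assignment and word counting were tested on simulated data and recovered every placed peak and repeat. Alternatives changed the TSS window, the TSSs used, the assignment of peaks to genes, the share of peaks kept, the cluster limits, the word length, the motif window and the replicates used.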

Additional observations from a re-analysis of the deposited data

How the results depend on the processing

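With a TSS window of 250 bp, 52 histone genes (77.6%) were open, against 66.1% of all protein-coding genes. With 500 bp the count was 55 (82.1%) against 68.0%, and with 2500 bp it was 60 (89.6%) against 73.3%. The main window of 1 kb gave 57 (85.1%) against 69.7%. At 250 bp, 9 of 12 H3 genes were open, against all 12 at 1 kb. When each peak counted only for the gene with the nearest TSS, 56 histone genes (83.6%) were open, against 67.2% of all. The last choice, by which a peak shared by neighbours counts for the nearest gene only, moved the median of their mean strength to 120.25, against 129.5. Leaving out each replicate gave medians of 128 to 129.5 and counts of 57 to 58, against 70.8% to 71.9% of all genes. With the stronger 50% of peaks, the 5′-most TSS or TSSs of protein-coding transcripts alone the count was 57. Of all genes, 65.5%, 65.3% and 68.4% were then open. Words of 50 bases gave a median repeated share of 20.7%, against 22.8%. All other alternatives moved a count by less than 1.5 times or a value by less than the spread between replicates. No paired analysis was possible because there was only 1 group.

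The peak score is bounded and its definition is unknown, as is the library depth, so no interval was given. Repeated sequence at 6 genes without a peak and 4 weak open genes limits what their values say. Peaks shared between neighbours, 24 genes in replicate 1, mean that genes are not independent. Annotated TSSs far from the start codon changed the call at Hist1h1d.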
